A study of Homo sapiens with 12 samples.

Results

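Homologous recombination repairs a broken chromosome by copying the intact sister chromatid. BRCA1, in a complex with BARD1, acts early, where the broken ends are resected, and PALB2 links it to BRCA2, which acts on the resected single-stranded DNA. RAD51C, RAD51D, XRCC2 and XRCC3 are paralogs of one another that assist the search for the intact copy, and BRIP1 is a helicase that binds BRCA1. Inherited loss-of-function variants in several of these genes raise the risk of breast or ovarian cancer, and tumours that lack the pathway are sensitive to inhibitors of PARP1.

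The mRNA of 9 such genes (BRCA1, BARD1, BRIP1, PALB2, BRCA2, RAD51C, RAD51D, XRCC2 and XRCC3), chosen by name, is described here out of 29972 genes listed for each cell line. The lines are MDA-MB-436 and BoM-1833, both labelled triple-negative breast cancer; MDA-MB-436 carries a mutated BRCA1 and BoM-1833 does not. Cells were reverse transfected for 72 h with small interfering RNA (siRNA) at 5 nM in total. The treated groups (siPHF19) received a mixture of 2 siRNAs in equal parts against PHF19, a Polycomb-like subunit of the chromatin repressor PRC2. The control groups (siNT) received a non-targeting pool from another supplier, so supplier and target cannot be told apart. Each of the 4 groups had 3 libraries, and each line was 1 established culture line with no untransfected group. The labels do not say that libraries of a group came from separate cultures, so the p-values measure the spread between these samples, which may be technical.

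Reads assigned to genes numbered between 15.2 and 24.0 M per library in MDA-MB-436 and between 13.7 and 21.3 M in the BoM-1833 libraries. PHF19 itself fell in both lines, from between 2942 and 3763 normalized counts to between 315 and 340.1 in MDA-MB-436, and from between 1669 and 1711 to between 173 and 201 in BoM-1833. The hormone receptor genes ESR1 and PGR were near 0 in both lines and VIM, KRT8 and KRT18 were present. The keratin genes moved with the treatment: per the authors' deposited table KRT8 was called higher in MDA-MB-436 (0.69) and BoM-1833 (0.70), as was KRT18 (0.26 and 0.46), while VIM was called lower in BoM-1833 (-0.21). The part of this shift in the values below was not tested. ERBB2 was detected in both, at a mean of 1079 normalized counts in MDA-MB-436. The remaining cell type markers are given as mean normalized counts per line, MDA-MB-436 first. FOXA1 was at 112.5 and 43.3, GATA3 at 2.15 and 150.2, PECAM1 at 23.0 and 320.9, and PTPRC at 0.311 and 17.5. Some of these markers were thus not near 0, and what their levels say about the cells was not tested.

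A normalized count is a read count divided by a size factor for its library, as the authors deposited it. It compares libraries for 1 gene and carries no correction for gene length. Genes with an adjusted p below 0.05 in the authors' deposited table are referred to as called; the table holds a DESeq2 Wald test of siPHF19 against siNT within each line. All 9 genes were tested in both lines. In MDA-MB-436, 1 of the 9 was called, XRCC3, which was lower in siPHF19, against a background of 22.1% of all 14243 genes tested (10.5% higher and 11.5% lower). An unadjusted p under 0.05 was found in MDA-MB-436 for 3 of the 9, BRCA1, BARD1 and XRCC3. edgeR's quasi-likelihood test called 2 of the 9 in that line. In BoM-1833, 0 of the 9 were called, against 10.9% of 12906 genes (5.21% higher and 5.72% lower). There 0 of the 9 had an unadjusted p under 0.05, and edgeR also called 0. The shares of all genes with an unadjusted p under 0.05 were not counted. Positive log2 fold changes numbered 5 of 9 in MDA-MB-436 and 4 of 9 in BoM-1833. The median log2 fold change of the 9 was 0.0036 in MDA-MB-436, beside -0.0022 for all genes tested, and -0.05 in BoM-1833, beside -0.0035.

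The fold changes of the 9 genes were small. Per the authors' deposited table, log2 fold changes ran from -0.44 to 0.32 in MDA-MB-436, and the outermost bounds of the 95% intervals were -0.63 and 0.68. In BoM-1833 they ran from -0.22 to 0.19, with outermost bounds of -0.50 and 0.55. These intervals rest on 87 to 1304 reads per gene and library in MDA-MB-436 and on 118 to 673 in BoM-1833. The siPHF19 and siNT libraries did not overlap for 3 of 9 genes in MDA-MB-436, BARD1 and RAD51D (higher) and XRCC3 (lower), against 42.2% of all genes tested (21.1% in each direction). In BoM-1833 they did not overlap for 2 of 9, BRCA1 and XRCC3 (both lower), against 31.0% (15.3% higher and 15.7% lower).

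**Figure D1:**
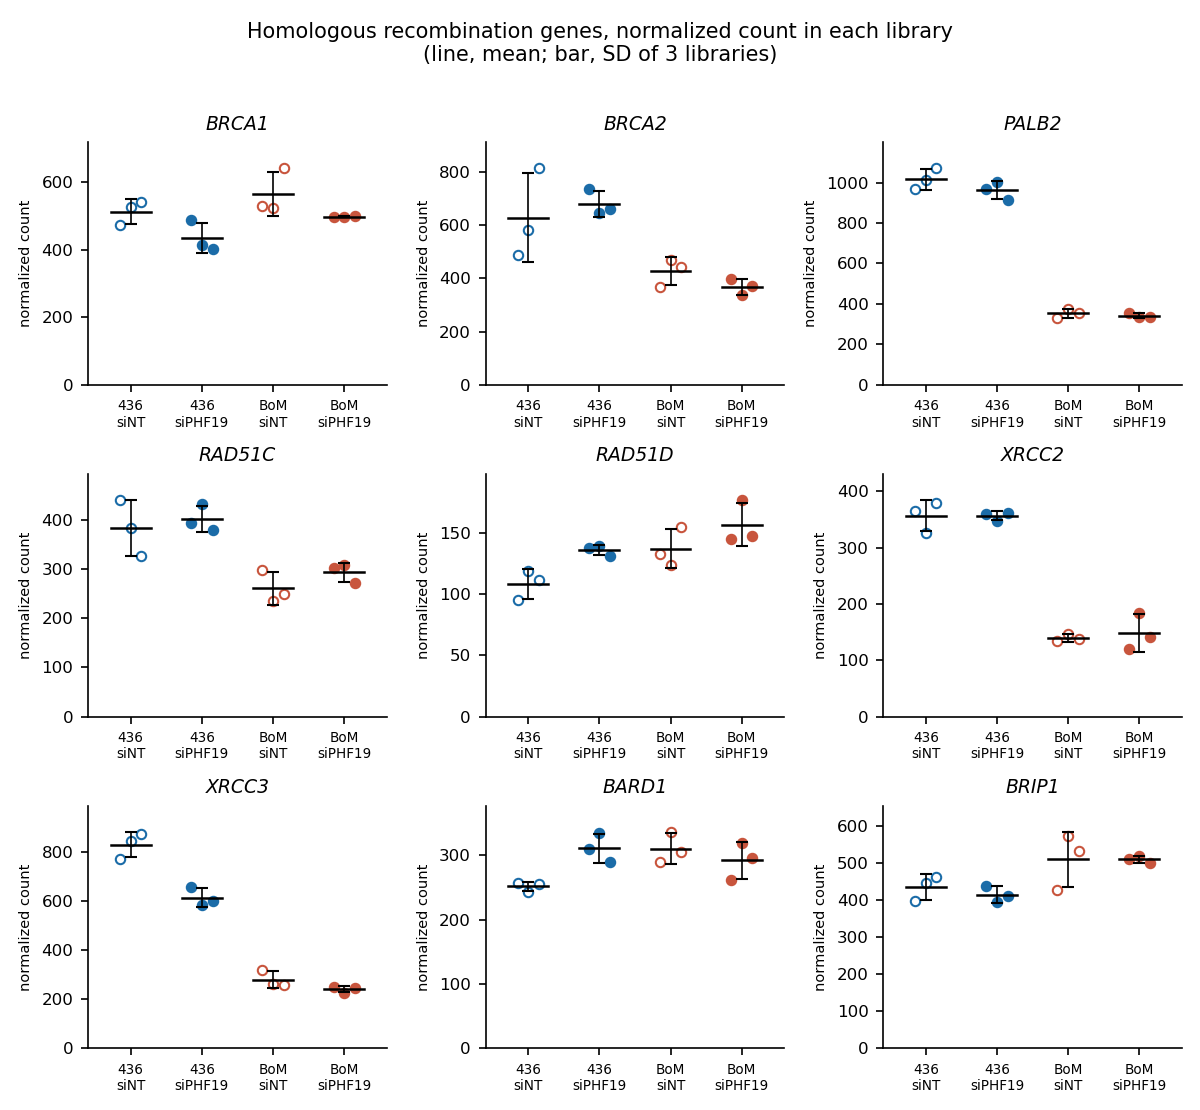
Normalized count (y axis, starting at 0) of each of the 9 genes in every library of the 4 groups (x axis). Points are libraries, the line is the mean and the bar the SD of 3 libraries; in MDA-MB-436 the XRCC3 values of siPHF19, 581 to 655, all lie below the siNT values, 771 to 872.

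BRCA1 is a ubiquitin ligase subunit and the gene that is mutated in MDA-MB-436. It spans chr17:43044295-43170245 on the minus strand (GRCh38). In MDA-MB-436 its normalized counts were 473, 525 and 542 in siNT and 487, 415 and 403 in siPHF19. The groups overlapped through the lowest siNT library, and 2 of the 3 siPHF19 libraries lay below all controls. The log2 fold change in the authors' deposited table is -0.24 (standard error 0.12, p = 0.0412, adjusted p = 0.134), so BRCA1 was not called. In BoM-1833 the siNT libraries held 531, 523 and 642 normalized counts and the siPHF19 libraries 497, 497 and 499.7. All siPHF19 libraries lay below all siNT libraries there, close together, while 1 control library stood higher than the other two. The authors' deposited table lists -0.18 (standard error 0.11, adjusted p = 0.345) for BRCA1 in this line. NBR2, a non-coding gene transcribed from the other side of the BRCA1 promoter, lies within the BRCA1 span without sharing an exon base, and it was not called in either line.

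BARD1, the partner that stabilizes BRCA1, lies at chr2:214725646-214809711 on the minus strand. In MDA-MB-436 its normalized counts were 257, 243 and 256 in siNT and 309.6, 334 and 289 in siPHF19, without overlap. Its log2 fold change in the authors' deposited table is 0.31 (standard error 0.13, 95% interval 0.06 to 0.56, unadjusted p = 0.0163), and the adjusted p of 0.0676 missed the threshold. edgeR, run on the same reads, called it at an adjusted p of 0.0323. In BoM-1833 the values were 289, 337 and 304 in siNT and 262, 319.6 and 296 in siPHF19. These overlapped, and the authors' deposited table lists -0.09 (standard error 0.13, adjusted p = 0.805).

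BRIP1, the BRCA1-associated helicase also known as FANCJ, lies at chr17:61681266-61863521 on the minus strand. In MDA-MB-436 it had 397, 447 and 463 normalized counts in siNT and 439, 394 and 411 in siPHF19. In BoM-1833 it had 429, 573 and 532 in siNT and 513, 519 and 501 in siPHF19. The groups overlapped in both lines, and the control libraries of BoM-1833 spread more widely than the treated ones. For BRIP1 the authors' deposited table lists -0.07 (standard error 0.11, adjusted p = 0.706) and 0.001 (standard error 0.12, adjusted p = 0.997) on the log2 scale.

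PALB2, the scaffold between BRCA1 and BRCA2, lies at chr16:23603160-23641310 on the minus strand. Its normalized counts were 966, 1011 and 1071 in siNT and 969, 1002 and 914 in siPHF19 in MDA-MB-436. They were 329, 375 and 355 in siNT and 355, 337 and 333 in siPHF19 in BoM-1833. Groups overlapped in both lines, and PALB2 in MDA-MB-436 had the narrowest error of the set. Per the authors' deposited table, the log2 fold changes of PALB2 are -0.08 (standard error 0.09, adjusted p = 0.580) and -0.05 (standard error 0.12, adjusted p = 0.896).

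BRCA2, which acts on resected single-stranded DNA, lies at chr13:32315474-32400266 on the plus strand. In MDA-MB-436 the siNT libraries held 488, 581 and 814 normalized counts and the siPHF19 libraries 737, 646 and 659. The controls spanned the treated values, with siNT replicate 3 above every other library of the line. The log2 fold change in the authors' deposited table is 0.12 (standard error 0.16, adjusted p = 0.656). That value rested on single control libraries: with DESeq2 it was 0.34 (adjusted p = 0.0195) without siNT replicate 3 and -0.03 without siNT replicate 1. In BoM-1833, BRCA2 had 369, 470.3 and 444 normalized counts in siNT and 396, 336 and 370.0 in siPHF19. One treated library lay inside the control range and another just above its lower end, and the authors' deposited table gives -0.22 (standard error 0.13, adjusted p = 0.327).

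XRCC3, which forms a complex with RAD51C, was the gene of the set that fell. It lies at chr14:103697609-103715504 on the minus strand. In MDA-MB-436 it held 771, 844 and 872 normalized counts in siNT and 655, 581 and 601 in siPHF19, or 829 ± 52.4 and 613 ± 38.2 (mean ± SD, n = 3). Every siPHF19 library lay below every siNT library. In the authors' deposited table XRCC3 has a log2 fold change of -0.44 (standard error 0.10, 95% interval -0.63 to -0.25, adjusted p = 0.000112), a fold of 0.738. The call held under all 10 alternatives run, with log2 fold changes from -0.49 to -0.40. In BoM-1833 its normalized counts were 319, 262 and 259 in siNT and 249, 225 and 246 in siPHF19. The groups again did not overlap, with siPHF19 lower, but the log2 fold change of -0.22 (standard error 0.14, 95% interval -0.50 to 0.06) was not called in the authors' deposited table (adjusted p = 0.395).

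The exons annotated for XRCC3 in GENCODE 29 share 5756 of their 7507 bases (76.7%) with exons of KLC1, a kinesin light chain gene on the opposite strand. Whether strand was used in counting is not given in the sources used here, and without it reads of the overlapping genes cannot be told apart. KLC1 held 2794, 2500.3 and 2379 normalized counts in siNT and 2179, 2236 and 2280.2 in siPHF19 in MDA-MB-436. Its treated libraries also lay below all controls, and its log2 fold change in the authors' deposited table is -0.20 (adjusted p = 0.0608) there and -0.08 (adjusted p = 0.584) in BoM-1833. The part of KLC1 in the XRCC3 result was not tested.

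RAD51C, which forms one complex with XRCC3 and another with RAD51D and XRCC2, lies at chr17:58692573-58735611 on the plus strand. In MDA-MB-436 it had 441, 383 and 327 normalized counts in siNT and 395, 432 and 380.2 in siPHF19. In BoM-1833 it had 298, 234 and 249.9 in siNT and 302, 308 and 271 in siPHF19. Both pairs of groups overlapped, though in BoM-1833 only through the lowest treated and the highest control library. The log2 fold changes listed in the authors' deposited table are 0.07 (standard error 0.13, adjusted p = 0.767) and 0.17 (standard error 0.14, adjusted p = 0.549).

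RAD51D, which bridges RAD51C and XRCC2 in their complex, lies at chr17:35092208-35121522 on the minus strand. It was the gene of the set with the fewest reads in MDA-MB-436. Normalized counts were 95, 119 and 111 in siNT and 137, 139 and 131 in siPHF19 in MDA-MB-436, and 133, 124 and 155 in siNT and 145, 177 and 148 in siPHF19 in BoM-1833. The groups separated in MDA-MB-436, with siPHF19 higher, and overlapped in BoM-1833. Per the authors' deposited table, the log2 fold changes are 0.32 (standard error 0.18, 95% interval -0.04 to 0.68, adjusted p = 0.212) and 0.19 (standard error 0.18, adjusted p = 0.621). RAD51D shares 905 exon bases with RAD51L3-RFFL, a readthrough transcript into the next gene, RFFL, so its counts may be split. RFFL, a ubiquitin ligase gene, was called lower in both lines, at -0.46 (adjusted p = 0.0041) and -0.28 (adjusted p = 0.0182) in the authors' deposited table. The calls of RFFL were not followed through the alternatives.

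XRCC2, the remaining paralog, lies at chr7:152644779-152676165 on the minus strand. Its normalized counts were 366, 326 and 379 in siNT and 359.8, 348 and 362 in siPHF19 in MDA-MB-436. In BoM-1833 they were 134, 147 and 137 in siNT and 119, 184 and 141.8 in siPHF19, with the lowest and the highest library of the line both in siPHF19. Groups overlapped in both lines, at log2 fold changes of 0.0036 (standard error 0.12, adjusted p = 0.989) and 0.09 (standard error 0.19, adjusted p = 0.876) in the authors' deposited table.

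**Figure D2:**
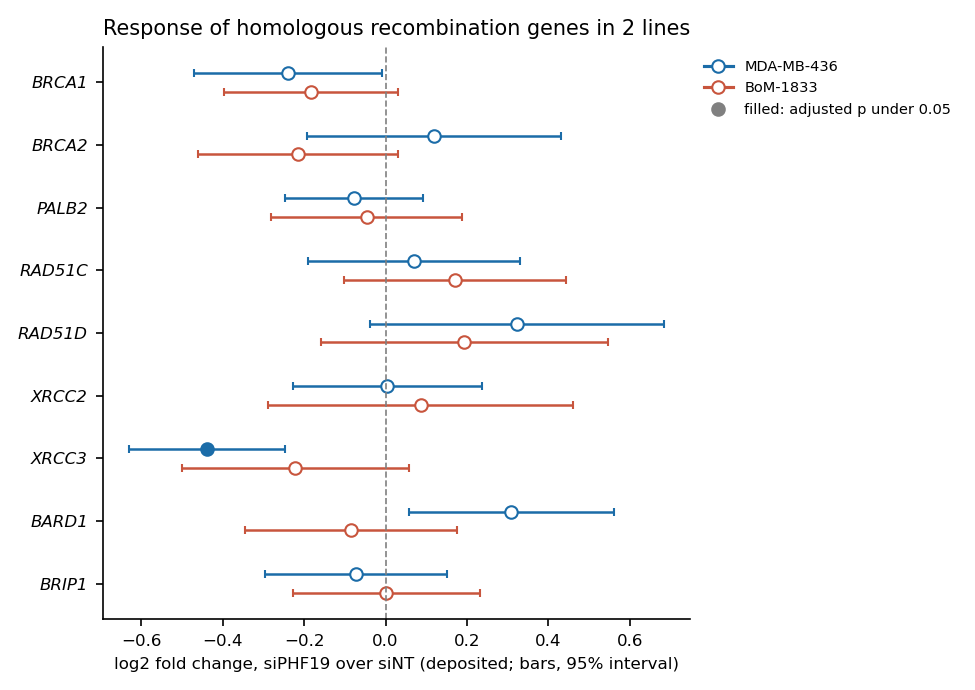
Log2 fold change of siPHF19 over siNT (x axis) for each of the 9 genes (y axis) in both lines, from the authors' deposited table, with 95% intervals as bars. The XRCC3 interval in MDA-MB-436, -0.63 to -0.25, lies wholly below 0; its BoM-1833 interval, -0.50 to 0.06, includes 0.

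Short siRNA matches in 3′ untranslated regions (UTRs) can lower mRNAs that are not the target, through pairing of the siRNA's seed, which begins at its base 2; their part in these data was not tested. The sequences of the siRNAs used are not given in the sources used here. Earlier results of these same data had counted the 6-base sequence AAACTG in 3′ UTRs, so the same letters were searched here, on the sense strand of each gene's annotated transcript (GENCODE 29), as a description only. It occurred in 4 of the 9 genes (44.4%): BARD1 (1 match), BRIP1 (1), RAD51C (1) and RAD51D (3). It was held by 43.3% of the 3′ UTRs of all genes tested in MDA-MB-436, by 51.2% of those called lower and by 45.0% of those called higher. In BoM-1833 the shares were 43.7% of those tested, 62.8% of those called lower and 36.8% of those called higher. The sets also differed in 3′ UTR length, and a longer one has more room for a match. In BoM-1833 the medians were 1148.5 bases for those tested, 1573.5 for those called lower and 1272 for those called higher. In MDA-MB-436 they were 1144, 1006 and 1714. The 9 genes had a median of 1496 bases, with 8745 in RAD51D, 3030 in BARD1, 2030 in BRIP1 and 1389 in RAD51C. Those without a match ran from 289 (PALB2) to 2138 bases (XRCC2). The shares are not adjusted for length. XRCC3, the gene called lower, was without a match, as were BRCA1, BRCA2, PALB2 and XRCC2. Of 16 other genes whose lower calls are given here (PHF19 and VIM aside), 8 held it: BRCC3, BIRC5 and RFFL with 2 matches each and BABAM1, PARP1, XRCC5, PRKDC and ABRAXAS1 with 1 each. The 8 without it were BABAM2, FANCD2, XRCC6, MCM3, MCM7, AURKB, UIMC1 and RAD54L. The matches are shown, with the 6 bases in capitals, because none of the 4 genes that hold them was called in either line.
BARD1: gatacgcacatcAAACTGaatgaataaata
BRIP1: tatttcgttattAAACTGcctacttataag
RAD51C: ttttaggtgaccAAACTGattttagtgacc
RAD51D, first match: ggaaggagtggcAAACTGgcaccagggtgt
RAD51D, next match: tgggtaaggtttAAACTGtctagttctgtg
RAD51D, last match: attgcactggctAAACTGacttttagtact

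These stretches are written 5′ to 3′ along the mRNA and lie in the 3′ UTR (GRCh38). They are chr2:214725661-214725690 (minus strand) for BARD1, chr17:61682543-61682572 (minus) for BRIP1 and chr17:58735017-58735046 (plus) for RAD51C. Those of RAD51D are chr17:35099582-35099611, chr17:35093879-35093908 and chr17:35093735-35093764, all on the minus strand. Of these 4 genes, BARD1 and RAD51D had every siPHF19 library above every siNT library in MDA-MB-436, beside 21.1% of all genes tested there. The part of the matches in these values was not tested. A match is not evidence of a site, and no match says only that these letters are not in the annotated 3′ UTR.

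The response was then compared between the BRCA1-mutant line and the other line. With 1 line of each kind, BRCA1 status cannot be told apart from other differences between the lines. The difference of the deposited log2 fold changes (MDA-MB-436 minus BoM-1833) was divided by the root of its summed squared standard errors, and p-values were adjusted over 12290 genes tested in both lines. None of the 9 genes differed (0 of 9, against 4.89% of all genes), and 1 of 9 had an unadjusted p under 0.05. That gene was BARD1, with a difference of 0.39 (standard error 0.18, 95% interval 0.03 to 0.76, adjusted p = 0.255). BRCA1 itself had a difference of -0.06 (95% interval -0.37 to 0.26, adjusted p = 0.911), and XRCC3 one of -0.22 (95% interval -0.55 to 0.12, adjusted p = 0.596). XRCC3 was thus called in 1 line and not in the other without a difference between lines that passed the test. The sign of the fold change was the same in both lines for 6 of 9 genes. The shares of all genes with the same sign, or with an unadjusted p under 0.05 for this difference, were not counted. BRCA2 had a difference of 0.33 (adjusted p = 0.432), which became 0.56 (adjusted p = 0.0214) without siNT replicate 3 of MDA-MB-436.

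Levels in the control libraries were set side by side between the lines in RPM (reads per M reads assigned to genes), without a test, because the tables were normalized separately. PALB2 was at 54.2 ± 3.6 RPM in MDA-MB-436 against 21.1 ± 1.59 in the BoM-1833 libraries (SD, n = 3), a ratio of 2.57. XRCC3 was at 44.2 ± 3.49 and 16.7 ± 1.93, a ratio of 2.65, and XRCC2 at 19 ± 1.5 and 8.33 ± 0.479, a ratio of 2.28. In these 3 genes all control libraries of MDA-MB-436 lay above all of BoM-1833. In 4 genes the order was the opposite, without overlap: BRCA1 (27.4 ± 2.36 and 33.7 ± 3.82), BARD1 (13.4 ± 0.342 and 18.5 ± 1.66), BRIP1 (23.3 ± 2.20 and 30.6 ± 4.71) and RAD51D (5.78 ± 0.729 and 8.17 ± 0.899). BRCA2 and RAD51C overlapped between the lines. The share of all genes whose control libraries separate in this way between the lines was not counted. The separation is therefore not shown to be particular to these genes. The XRCC3 levels may hold reads of KLC1, with which it shares exon bases, and their part was not tested.

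Per kb of annotated exon, PALB2 had the highest level of the 9 genes in the siNT libraries of both lines and RAD51D the lowest. In MDA-MB-436, PALB2 was at 11.4 RPM per kb, followed by XRCC3 at 5.89, XRCC2 at 3.92, RAD51C at 3.36, BRCA1 at 2.98, BRIP1 at 2.91, BRCA2 at 2.73, BARD1 at 2.21 and RAD51D at 0.511. From RAD51C down to BARD1, each neighbour in that order differed from the next by less than the larger SD of the pair. In BoM-1833 the order was PALB2 at 4.45, BRIP1 at 3.82, BRCA1 at 3.67, BARD1 at 3.05, RAD51C at 2.56, XRCC3 at 2.23, BRCA2 at 2.08, XRCC2 at 1.72 and RAD51D at 0.723. There BRIP1 and BRCA1, and XRCC3 and BRCA2, differed by less than the larger SD of the pair. This order depends on the length used. Per kb of coding sequence XRCC3 came first in both lines, at 42.5 and 16.0, and BRCA2 last, at 3.27 and 2.49. By that length PALB2 had rank 4 in MDA-MB-436 and rank 8 in BoM-1833, and RAD51D had ranks 6 and 4. The rank of XRCC3 may also rest on reads of KLC1, which was not tested.

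The genes whose values followed those of BRCA1 and XRCC3 most closely were found over the 12 libraries as the smallest root-mean-square difference of log2(normalized count + 1), each gene centred on its mean within each line. For BRCA1, whose own root-mean-square deviation was 0.145, these were LPHN1 (0.0586), FUK (0.0653) and ZFYVE20 (0.0683). For XRCC3, with a deviation of its own of 0.195, they were UBL4A (0.0710), NUP93 (0.0719) and GATAD2A (0.0799). These were the closest of 12289 genes compared, and whether they share regulation with BRCA1 or XRCC3 was not tested.

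Of 39 further homologous recombination genes, 38 were tested in MDA-MB-436; 7 were called and all 7 were lower (18.4%, median log2 fold change -0.06). In BoM-1833, 3 of 39 were called, again all lower (7.69%, median -0.0043). Both shares lie below the percentages of all genes called. The count was between 3 and 8 in MDA-MB-436, and between 1 and 8 in BoM-1833, when 1 library at a time was left out.

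Of the 7 calls in MDA-MB-436, 5 were subunits of the BRCA1-A complex, as were all 3 calls in BoM-1833. This complex brings BRCA1 to ubiquitin marks at breaks and limits end resection. The grouping was chosen after the values were seen and was not tested. RAD54L, a motor protein that acts on DNA during recombination, is no part of that complex. It was also called lower in MDA-MB-436, at -0.24 (adjusted p = 0.0277) in the authors' deposited table. The call of RAD54L was not followed through the alternatives. BABAM1, a scaffold subunit, held 2167, 1763 and 1624 normalized counts in siNT and 1162, 1159.6 and 1149 in siPHF19 in MDA-MB-436, and 3328, 2767 and 2836 against 2397, 2385 and 2523 in BoM-1833. BABAM1 stands at -0.68 (standard error 0.11, adjusted p = 9.75e-09) and -0.29 (standard error 0.08, adjusted p = 0.00311) on the log2 scale in the authors' deposited table. All treated libraries lay below all controls in both lines.

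BABAM2, its partner, listed under its older symbol BRE, had 763, 791 and 739 normalized counts in siNT and 579, 514 and 583 in siPHF19 in MDA-MB-436. In BoM-1833 it had 754, 824 and 752 against 621, 617 and 604. The groups separated in both lines, at log2 fold changes of -0.46 (standard error 0.10, adjusted p = 4.87e-05) and -0.34 (standard error 0.09, adjusted p = 0.00381) in the authors' deposited table. BRCC3, the deubiquitinase of the complex, held 1508, 1496 and 1560.5 against 1307, 1286 and 1171 in MDA-MB-436 and 852, 846 and 894 against 719, 756 and 724 in BoM-1833. It separated in the same way, at -0.28 (standard error 0.08, adjusted p = 0.00390) and -0.24 (standard error 0.09, adjusted p = 0.0525) in the authors' deposited table. BRCC3 was called in BoM-1833 by edgeR (adjusted p = 0.0292).

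The 2 remaining subunits, UIMC1, which reads the ubiquitin chains, and ABRAXAS1 (listed as FAM175A), which binds BRCA1, also had all siPHF19 libraries below all siNT libraries in both lines. Such a separation, with siPHF19 lower, was seen in 21.1% of all genes tested in MDA-MB-436 and in 15.7% of those in BoM-1833. Their adjusted p-values in the authors' deposited table were 0.0338 and 0.0492 in MDA-MB-436, and 0.373 and 0.0487 in BoM-1833. The calls of BABAM1 and BABAM2 in MDA-MB-436 held in all 6 fits that left out 1 library. That of BRCC3 was lost in 2 of the 6, that of UIMC1 in 5 and that of ABRAXAS1 in all 6. In BoM-1833 the call of BABAM1 was lost in 1 of 6 (without siPHF19 replicate 2), that of BABAM2 in 2 and that of ABRAXAS1 in 5.

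**Figure D3:**
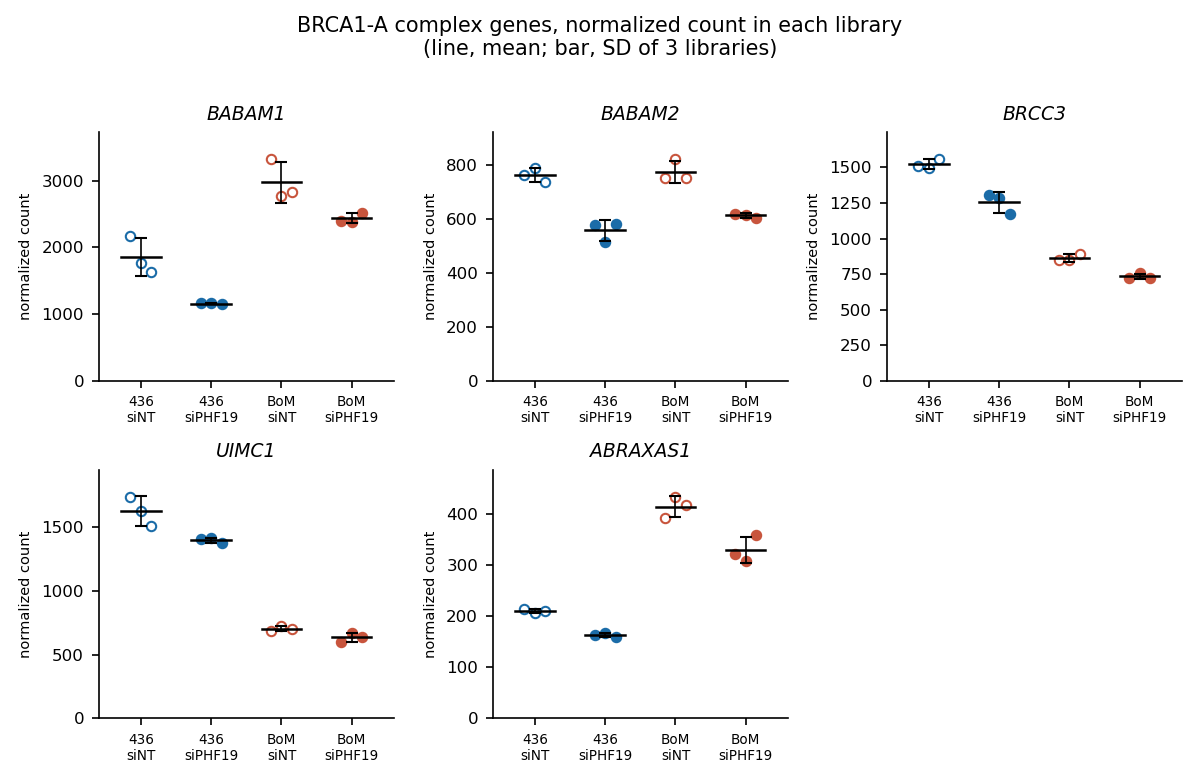
Normalized count (y axis, starting at 0) of the 5 BRCA1-A complex genes in every library of the 4 groups (x axis; 436 is MDA-MB-436 and BoM is BoM-1833). Points are libraries, lines are means and bars are SDs of 3 libraries; siPHF19 lies below siNT without overlap in both lines for all 5 genes, beside 21.1% of all genes tested in MDA-MB-436 and 15.7% of those tested in BoM-1833.

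Among 13 Fanconi anaemia genes, which act on interstrand crosslinks upstream of recombination, 2 were called in MDA-MB-436, 1 in each direction (15.4%, beside 22.1% of all genes). FANCD2, the subunit that is ubiquitinated at crosslinks, was lower in MDA-MB-436, at -0.36 (adjusted p = 7.59e-07) in the authors' deposited table, and FANCF was higher at 0.33 (adjusted p = 0.0472), a call lost in all 6 fits without 1 library. In BoM-1833, UBE2T, the ubiquitin-conjugating enzyme for FANCD2, was the single call (7.69%, beside 10.9% of all genes), higher at 0.36 (adjusted p = 0.00249) in the authors' deposited table. Without 1 library the count was 1 in MDA-MB-436 and between 0 (without siPHF19 replicate 2) and 2 (without siNT replicate 1) in BoM-1833.

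Of 17 end-joining and end-protection genes tested, which compete with recombination for broken ends, 4 were called in each line (23.5%, beside 22.1% and 10.9% of all genes) and all were lower. PARP1, the break sensor, held 10129, 9608 and 9601 normalized counts in siNT and 5447, 5418 and 5268 in siPHF19 in MDA-MB-436. In BoM-1833 it held 3296, 3290.3 and 3251 against 2481, 2565 and 2482. The groups were far apart in both lines, at log2 fold changes of -0.86 (standard error 0.06, adjusted p = 7.44e-46) and -0.39 (standard error 0.06, adjusted p = 9.32e-09) in the authors' deposited table. The fall was larger in MDA-MB-436, with a difference of -0.48 (adjusted p = 2.43e-06) that passed in all 12 fits without 1 library. XRCC5, a Ku subunit that binds broken ends, was lower in both lines, at -0.28 (adjusted p = 0.000393) and -0.22 (adjusted p = 0.000572) in the authors' deposited table. XRCC6, the other Ku subunit, was called lower in MDA-MB-436 and PRKDC, the kinase they recruit, in BoM-1833, at -0.35 (adjusted p = 0.00495) and -0.31 (adjusted p = 0.00227) in the authors' deposited table. The BoM-1833 count was between 2 and 5 without 1 library; it was 2 without siPHF19 replicate 2, where PRKDC also lost its call (adjusted p = 0.0631).

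Recombination genes are transcribed mostly in S and G2 phase, so cell cycle genes are given beside them. Of 40 DNA replication and S-phase genes, 16 were called in MDA-MB-436 (40%, beside 22.1% of all genes), 2 higher and 14 lower, with a median log2 fold change of -0.18. In BoM-1833, 2 of 40 were called, both higher (5.00%, beside 10.9% of all genes; median 0.06). The count in MDA-MB-436 was between 5 and 19 when 1 library at a time was left out; it was 5 without siPHF19 replicate 1 or replicate 2 and 7 without siNT replicate 2 or siPHF19 replicate 3. In BoM-1833 it was between 1 and 6, the latter without siNT replicate 1. RRM2, a ribonucleotide reductase subunit, rose in both lines, with log2 fold changes of 0.40 and 0.55 per the authors' deposited table. The helicase subunit MCM3 is listed in the authors' deposited table at -0.37 (adjusted p = 3.1e-07) for MDA-MB-436, where it was called lower, and at -0.02 (adjusted p = 0.905) for BoM-1833. MCM7, another helicase subunit, was also called lower in MDA-MB-436, at -0.26, and not in BoM-1833, at 0.07, per the authors' deposited table. Of 24 G2/M and mitotic genes, 6 were called in MDA-MB-436, 4 higher and 2 lower (25.0%, beside 22.1% of all genes), and 4 in BoM-1833, all higher (16.7%, beside 10.9%). Without 1 library these counts were between 2 and 7 in each line, falling to 2 without siPHF19 replicate 1 of MDA-MB-436 or siPHF19 replicate 2 of BoM-1833. KIF20A, a mitotic kinesin, and CCNA2, the S and G2 cyclin, rose in both lines, by 0.35 and 0.23 in MDA-MB-436 and by 0.41 and 0.36 in BoM-1833 on the log2 scale of the authors' deposited table. In MDA-MB-436 the call of CCNA2 was lost in 4 of 6 fits without 1 library (adjusted p up to 0.170) and that of KIF20A in 1 of 6 (0.0837, without siPHF19 replicate 1). BIRC5 and AURKB, of the chromosomal passenger complex, fell in MDA-MB-436, at -0.49 and -0.37, and were not called in BoM-1833, at 0.09 and -0.09, in the authors' deposited table. The part of these lists in the values of the recombination genes was not tested, and in bulk samples fewer cells of a kind and less RNA per cell cannot be told apart.

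**Figure D4:**
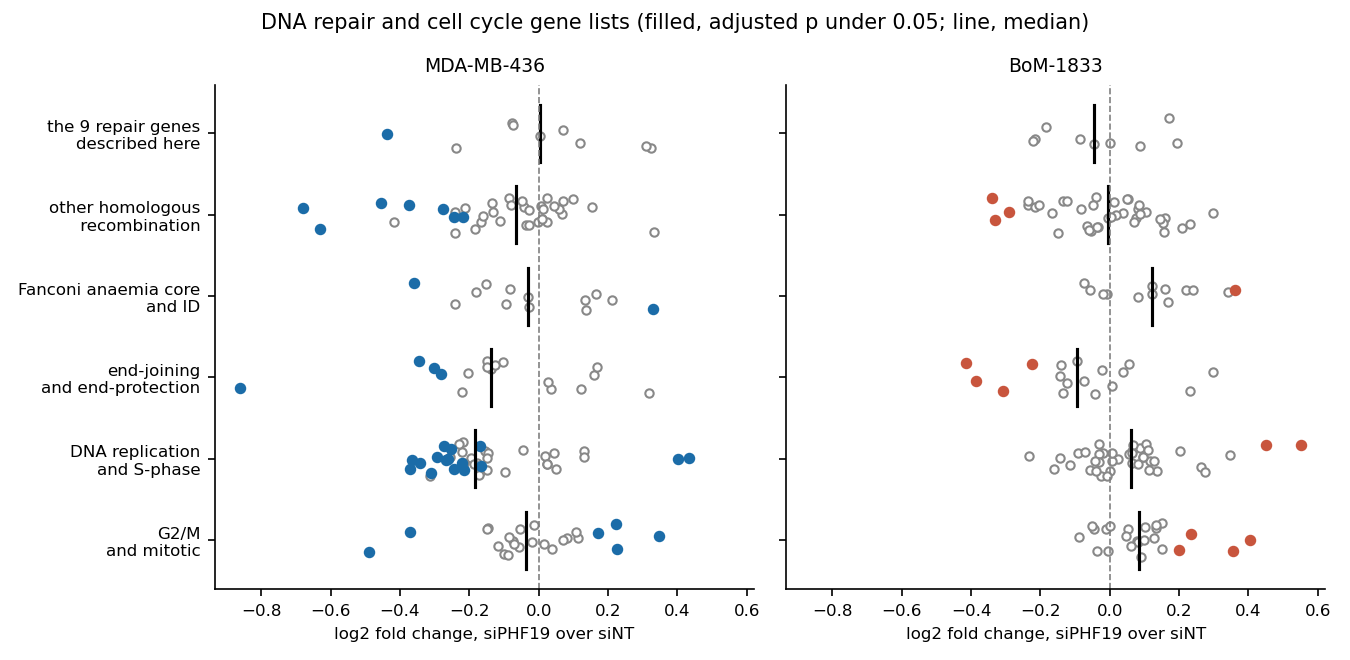
Log2 fold change of siPHF19 over siNT (x axis), from the authors' deposited table, for each tested gene of the 9 repair genes and of the 5 further lists (y axis), with 1 panel per line. Points are genes, filled where the adjusted p was under 0.05, and the vertical bar is the list's median. The 9 genes lie between -0.44 and 0.32 in MDA-MB-436 and between -0.22 and 0.19 in BoM-1833, and the S-phase genes of MDA-MB-436 have their median at -0.18.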

How the data were processed

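Messenger RNA libraries were made with a stranded kit, per the labels' protocols. The submitters' processing notes name STAR, RSEM 1.3.1, DESeq2 1.46.0 and hg38; the annotation and the use of strand are not given in the sources used here. The authors deposited, per line, a signal for each library (read counts divided by a size factor), log2 fold changes with standard errors, the Wald statistic (a score) and p-values. Whole reads were recovered from the deposited signal (all values whole within 0.02). DESeq2 1.42.0 on these reads gave the authors' numbers of calls, 3143 and 1411; edgeR 4.0.16 called 3422 and 1527. The deposited test, with Benjamini-Hochberg adjustment, is the main result, and genes that the filter of DESeq2 left out were not tested. Intervals cover 95%. No columns belonged to no sample of the series (0). Replicates differed by more than sampling noise, and in both lines the siNT pairs differed more than the siPHF19 pairs. Chi-square per degree of freedom ran from 5.92 to 24.1 in siNT and from 2.29 to 3.45 in siPHF19. Positions, exon lengths and 3′ UTRs come from GENCODE 29 on GRCh38.

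The 9 genes and all lists were chosen with earlier results of these data known. Besides the 9 genes and PHF19, the rule named up to 4 called genes per list by smallest adjusted p, and for BRCA1 and the gene of the 9 with the smallest adjusted p the 3 most similar genes. RAD54L, UIMC1, ABRAXAS1, RAD51B, KLC1, NBR2, RAD51L3-RFFL and RFFL fall outside it and were chosen after their values were seen or for their position. The results of 2 genes that the rule selects are not reported here. Alternatives were edgeR, TMM size factors, no independent filtering, a replicate block and leaving out each library; scripts were tested on simulated data.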

Additional observations from a re-analysis of the deposited data

Results flagged for a closer look

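By the test of the difference itself, the response to siPHF19 differed between the lines in 4 named genes around the 9 repair genes. None of the 9 was among them. Genes named from the lists were picked by a small adjusted p in either line, which favours finding a difference. By whole list, 1 of 38 further recombination genes, 0 of 13 Fanconi anaemia genes and 2 of 17 end-joining genes differed. So did 3 of 40 S-phase and 1 of 24 G2/M genes, beside 4.89% of all genes. Differences are log2 fold changes of MDA-MB-436 minus BoM-1833, adjusted over 12290 genes. PARP1 had a difference of -0.48 (adjusted p = 2.43e-06). The S-phase genes MCM3 and MCM7 had differences of -0.35 (adjusted p = 0.00262) and -0.33 (adjusted p = 0.00466). BIRC5, a mitotic and anti-apoptotic gene, had a difference of -0.58 (adjusted p = 0.000415). Of 12 fits without 1 library each, PARP1 and BIRC5 passed in all 12, MCM3 in 11 and MCM7 in 9.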

How the results depend on the processing

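XRCC3 in MDA-MB-436 stayed lower and called in all 10 alternatives (adjusted p from 2.44e-05 to 0.0178), and 0 of the 9 genes were called in BoM-1833 in any of them. In MDA-MB-436 2 of the 9 were called by edgeR, and between 1 and 2 when 1 library was left out; the additional genes were BARD1 (edgeR) and BRCA2 (without siNT replicate 3). Between 0 and 1 of the 9 differed between lines without 1 library. Genes called in MDA-MB-436 numbered between 1767 and 3801 without 1 library, those in BoM-1833 between 746 and 2046, and genes differing between lines between 301 and 1056. TMM size factors and the fit without independent filtering kept these counts within 1.5 times.

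Replicate numbers are shared by the groups, but same-numbered libraries did not deviate together (r between -0.27 and 0.04 among the MDA-MB-436 libraries, and between -0.31 and -0.12 among those of BoM-1833), and 1 of 3 and 0 of 3 siNT libraries correlated best with their own number. With the replicate number as a block, the calls numbered 1610 for MDA-MB-436, with 610 for BoM-1833, and 263 genes differed between lines. XRCC3 kept its call with the block (adjusted p = 0.0142). With the block these calls were lost (adjusted p in brackets): BRCC3 (0.0879), UIMC1 (0.208), ABRAXAS1 (0.277), FANCF (0.233) and CCNA2 (0.15) in MDA-MB-436, and BABAM1 (0.0524), BABAM2 (0.106), ABRAXAS1 (0.325) and XRCC5 (0.0582) in BoM-1833, where 0 of the 39 further recombination genes were then called. Of the differences between lines given above, PARP1 passed with the block (0.0234), and BIRC5 (0.0668), MCM3 (0.10) and MCM7 (0.122) did not.

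Small fold changes changed sign. BRIP1 in BoM-1833 was at -0.000667 by edgeR and -0.00246 with TMM size factors, and ran from -0.11 to 0.090 without 1 library. Without 1 library, BRCA2 ran from -0.028 to 0.34, RAD51C from -0.028 to 0.18 and XRCC2 from -0.062 to 0.048 in MDA-MB-436. In BoM-1833, XRCC2 ran from -0.099 to 0.23, MCM3 from -0.039 to 0.0032 and AURKB from -0.17 to 0.027. The difference between lines ran from -0.076 to 0.017 for PALB2, from -0.21 to 0.0076 for RAD51C, from -0.22 to 0.10 for XRCC2 and from -0.16 to 0.039 for BRIP1. Leaving out a library also removes reads and degrees of freedom. Depth limits RAD51D in MDA-MB-436, with 87 reads in its thinnest library, and XRCC2 in BoM-1833, with 118. The coding-length order was added after the data were seen.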

Other observations

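RAD51B, the paralog that completes the complex of RAD51C, RAD51D and XRCC2, was listed at 0 in all 6 libraries of MDA-MB-436 and between 136 and 159 normalized counts in the 6 libraries of BoM-1833; this gene was picked with its values in view. The 0 counts allow up to 3 reads per library, or between 0.125 and 0.198 RPM (reads per M reads assigned to genes) in MDA-MB-436, counting error only. In BoM-1833 its level was 8.57 ± 0.325 RPM in siNT and 8.99 ± 0.758 in siPHF19 (SD, n = 3), close to that of RAD51D at 8.17 ± 0.899 in siNT.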
